A study of Mus musculus with 4 samples.

Results

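Loss of LSH in mouse embryonic fibroblasts (MEFs) was examined through the 5 kb genome bins that the authors called differential in 5-hydroxymethylcytosine (5hmC) between LSH knockout and wild-type cells. Every row of the MEF list on chromosomes 1 to 19 was taken, which gave 8920 bins of the 9002 on that list and of the 17559 on the MEF and embryonic stem (ES) cell lists together. The remaining 82 MEF bins lay on the X chromosome (52), the mitochondrial genome (3) and unplaced sequence (27). The 8920 bins cover 44.6 Mb, and 8919 of them are among the 478767 bins with sequence, a listed share of 1.86% [1.83% to 1.90%].

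The study compared 4 groups of 1 library each, wild type and LSH knockout in MEFs and in ES cells. The MEFs, labelled as fibroblasts, were grown in DMEM with 10% fetal bovine serum, and the ES cells in medium with LIF. The labels name no knockout allele or strain, and whether cells of several embryos were pooled is not given in the sources used here. Fragments with 5hmC were tagged with an azide-bearing glucose, biotinylated and captured before sequencing. The MEF list holds positions only, with no level, direction, fold or p-value, so a bin is called listed and never higher or lower. There is no replicate error, the read depth is unknown, and intervals in brackets are exact 95% binomial intervals over bins, which are not replicates. The marker genes of fibroblasts cannot check the cell label, because the list holds no level. In a bulk sample, a change in the share of cells that carry 5hmC and a change in 5hmC per cell cannot be told apart.

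5hmC is made from 5-methylcytosine by the TET dioxygenases, and in differentiated cells it is known to lie mostly over gene bodies and distal regulatory sequence. LSH, encoded by Hells, is a chromatin remodeler of the SNF2 family that is needed for normal DNA methylation during development. MEFs are connective tissue cells that make collagen, elastic fibres and other matrix, and that answer to TGF-beta, WNT and growth factor signals. Hells itself, at chr19:39005405-39045541, held 0 MEF bins and 0 ES bins.

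The sequence of 6 windows of 200 bases shows the kinds of sequence that were listed, 4 from the stretches with most bins and a pair from promoter bins of genes with many bins. Each is the window with most CpG in its bin, on the plus strand of NCBIM37 (mm9), with every CpG in capitals. The Eln window (chr5:135262068-135262267) is intergenic, centred 39.1 kb upstream of the gene start, and its 17 CpG lie mostly in a run of alternating C and G. The Edar window (chr10:58138403-58138602) holds 13 CpG and lies directly upstream of the gene start, the Gas6 window (chr8:13493802-13494001) holds 21 CpG inside the gene, and the Rhou window (chr8:126185001-126185200) holds 10 CpG over an exon of Rhou. The Prkce and Ext1 windows (chr17:86566924-86567123 and chr15:53177754-53177953), with 32 and 39 CpG, lie just upstream of the gene starts. Those at Edar, Gas6, Prkce and Ext1 lie in bins with a CpG-island-like window, and those at Eln and Rhou do not.
Eln: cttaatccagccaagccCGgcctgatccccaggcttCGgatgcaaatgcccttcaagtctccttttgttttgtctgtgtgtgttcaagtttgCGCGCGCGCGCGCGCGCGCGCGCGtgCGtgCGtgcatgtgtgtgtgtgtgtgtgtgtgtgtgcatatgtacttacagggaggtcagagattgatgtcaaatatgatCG
Edar: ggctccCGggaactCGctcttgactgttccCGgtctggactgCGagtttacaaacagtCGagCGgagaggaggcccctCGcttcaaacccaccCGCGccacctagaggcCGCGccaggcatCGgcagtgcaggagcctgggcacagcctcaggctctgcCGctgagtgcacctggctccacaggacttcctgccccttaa
Gas6: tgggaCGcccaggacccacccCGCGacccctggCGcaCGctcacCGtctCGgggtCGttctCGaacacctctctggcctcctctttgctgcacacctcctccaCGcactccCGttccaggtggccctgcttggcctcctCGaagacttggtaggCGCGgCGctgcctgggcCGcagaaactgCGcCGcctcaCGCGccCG
Rhou: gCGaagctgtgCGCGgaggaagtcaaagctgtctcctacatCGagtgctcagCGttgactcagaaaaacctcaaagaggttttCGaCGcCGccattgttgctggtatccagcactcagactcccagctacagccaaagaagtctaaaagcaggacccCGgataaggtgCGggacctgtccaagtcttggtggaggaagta
Prkce: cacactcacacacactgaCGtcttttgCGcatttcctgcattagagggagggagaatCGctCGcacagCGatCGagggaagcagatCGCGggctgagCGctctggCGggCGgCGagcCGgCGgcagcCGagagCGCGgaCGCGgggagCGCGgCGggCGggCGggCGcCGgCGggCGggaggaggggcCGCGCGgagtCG
Ext1: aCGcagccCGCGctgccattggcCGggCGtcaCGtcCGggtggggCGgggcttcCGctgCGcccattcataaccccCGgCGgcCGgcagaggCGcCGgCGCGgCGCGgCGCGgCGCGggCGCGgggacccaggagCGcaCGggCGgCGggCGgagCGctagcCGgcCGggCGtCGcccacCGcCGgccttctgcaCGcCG

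The listed bins joined into 6845 stretches when bins within 10 kb were merged, and 31 stretches held 6 or more bins. These 31 stretches held 206 bins, 76 of them in introns, 71 intergenic, 39 over exons and 20 at promoters, and were 30 to 85 kb long. The ES list, with 8527 bins on these chromosomes (1.78% of bins), had 0 stretches of that size. Of the 31, 11 held an ES bin, 11 had a promoter bin and 8 had a bin with a CpG-island-like window. Their mean CpG density ran from 9.09 to 19.97 per kb, leaving out 1 stretch at the proximal end of chromosome 9 in which 89.99% of sampled 32-base words were repeated. In the other stretches that share was at most 12.8%. The repeated stretch on chromosome 9 gave 7 of the 20 promoter bins. Of the 76 intron bins, 7 lay at chr8:126185001-126250000 and 7 at chr8:123855001-123910000, where the very wide model Gm20388 covers the region.

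At chr15:85485001-85540000, 7 bins lay near Ppara, a nuclear receptor gene of fatty acid oxidation, 25.4 kb away at the nearest point. The last of them, chr15:85535001-85540000, contains the let-7c-2 and let-7b microRNA genes. A further 7 bins on chromosome 15 lay over the neighbouring genes Parvb and Parvg (chr15:84140001-84220000), which encode the focal adhesion proteins beta- and gamma-parvin. The bins there comprised 1 promoter bin, 2 exon bins, 1 intron bin and 3 intergenic bins. Another 7, all intergenic, lay 10.6 kb from Adamts20 (chr15:94045001-94090000), a secreted metalloprotease gene. At Rhou 8 bins ran through chr8:126185001-126250000, 7 of them classed as intron because the very wide model Gm20388 covers the region.

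The stretches of 6 bins lay at genes of several kinds. Beside Hoxb1, a homeobox gene of the hindbrain, 6 intergenic bins spanned chr11:96230001-96285000. Transcriptional regulators were also represented by Wt1 (chr2:104960001-105005000) and by Tle3, a Groucho-family corepressor gene whose stretch of 6 intergenic bins lay 60.2 kb away (chr9:61105001-61160000). Receptor and adaptor genes were Ptpru, a receptor tyrosine phosphatase (chr4:131315001-131370000), Shb, an SH2 adaptor (chr4:45480001-45515000), and Lingo1, a leucine-rich repeat membrane protein (chr9:56490001-56535000). Ccbe1, a secreted protein needed for lymphatic vessel growth, held 6 on chromosome 18 (66345001 to 66385000). The keratin gene Krt7 held 6 bins in and beside it (chr15:101210001-101260000), 1 at its promoter. Hspa12a, an HSP70-related gene, and Filip1, a filamin-interacting protein gene, each had promoter bins in their stretches, 2 and 1. Tmem104 (chr11:115065001-115105000) had the highest mean CpG density of these, 19.97 per kb.

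Single genes differed in where along the gene their bins lay. In Prkce, the gene of protein kinase C epsilon, the 22 bins comprised 1 promoter bin, 20 intron bins and 1 intergenic bin upstream, and 18 of the 22 lay nearer the start than the end of the 490.1 kb gene. In Pdzd2, which encodes a protein with several PDZ domains, none of the 18 bins lay in the first 50 kb. They began 169.7 kb into the gene, and 14 of the 18 lay nearer its end. Pknox2, a TALE homeobox gene, had the Prkce pattern, with 10 of 11 bins nearer the start and 7 within 50 kb of it. Edar, the ectodysplasin receptor gene, had 8 bins spread from its promoter to 68.4 kb, over nearly its whole length of 74.9 kb. Nkd1, an inhibitor gene of WNT signalling, had 7 bins, 3 over exons and 4 in introns. Wt1, a zinc finger gene of kidney and gonad development, had 6 bins inside or just upstream, 1 of which was also an ES bin. Of the Prkce bins 4 were ES bins too, and none was in Pdzd2, Edar, Nkd1 or Pknox2.

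**Figure D1:**
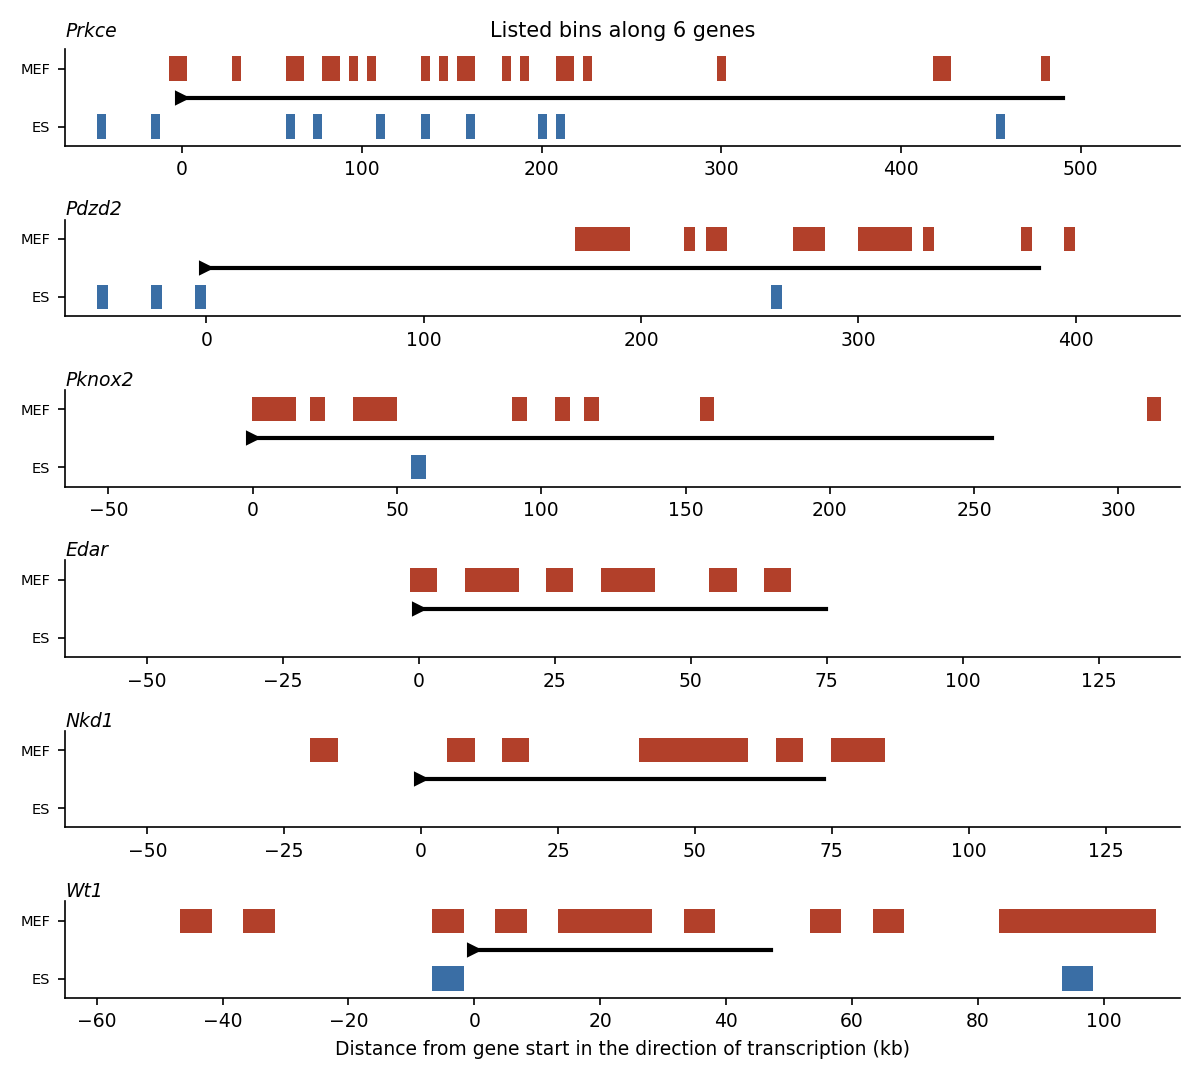
Listed bins along 6 genes; the horizontal axis of each panel is the distance from the gene start in kb in the direction of transcription, red boxes are MEF bins, blue boxes ES bins and the black line the gene. The Prkce and Pknox2 bins crowd toward the gene start, the Pdzd2 bins begin 169.7 kb into the gene, and the Edar and Nkd1 panels hold no ES bin.

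Of 24930 genes, 3642 had a MEF bin in the gene body or the 5 kb upstream, 14.6% of all genes. Leaving out 7 models that contain 10 or more other genes, 201 genes had 5 or more bins, and 35 had 10 or more (71 and 4 on the ES list). Counts rise with gene length. In 10 equal groups by length, 47.4% of genes in the longest group had a bin and 2.25% in the shortest, while bins per Mb ran from 4.27 to 5.35 in the 9 longer groups and were 2.30 in the shortest. By kind of gene, 15.0% of protein-coding genes, 13.9% of lincRNA genes and 11.7% of processed transcript models had a bin.

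The 30 genes described as having most MEF bins were 24 genes with more than 10 bins and 6 of the 11 genes tied at 10, taken in order of bins per 100 kb. Together these 30 held 380 listed bins, 281 in introns, 87 over exons, 9 at promoters and 3 intergenic. All 30 had more MEF than ES bins, which follows largely from choosing them by MEF bins. Of all genes 20.7% had an ES bin and 3.35% a listed promoter bin, shares not matched for gene length. A promoter bin also counts toward the bins by which the 30 were chosen. Among the 30, 4 had no ES bin and 5 had a bin at their own promoter. Transcription factor genes among them included Glis3, a Krueppel-like zinc finger gene (13 bins against 3 on the ES list), Nfib, a nuclear factor I gene (12 against 3), Aff3, an AF4-family gene (12 against 2), and Zfp423, a zinc finger gene of adipocyte commitment (11 against 2). Genes of matrix sugar chains were Ext1, a polymerase of heparan sulfate (12 against 2), and Chst11, a chondroitin sulfotransferase (11 against 6). Signalling genes included Rgs3, a regulator of G protein signalling in which 12 of 30 bins were listed, and Plce1, which encodes phospholipase C epsilon (11 against 0). They also included Arhgef3 (10 against 1), Ralgps1, an exchange factor gene for Ral (10 against 2), and Efna5, an ephrin ligand gene (10 against 0). Others were Phactr2, an actin and phosphatase 1 regulator gene (11 against 1), and Nav2 (11 against 6). The lincRNA Gm14005 on chromosome 2 held 13 bins, and the neuronal vesicle gene Syn3 held 11.

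Scaled by length, other genes led. Among genes of at least 20 kb with at least 4 bins, Hoxb3 and Slc10a6 were densest, each with 4 of 7 bins listed, 14.1 and 13.9 per 100 kb. Over all genes the value was 0.546 per 100 kb. Wt1 followed with 6 of 11 bins, then Angpt4, an angiopoietin gene (4 of 9), Edar (8 of 17), the hemidesmosome collagen gene Col17a1 (5 of 11) and Slc1a3, a glutamate transporter gene (8 of 18). The 20 densest genes also included Sfrp1, a secreted WNT antagonist gene (4 of 10), Zfpm1, a cofactor gene of GATA factors (5 of 13), and the ion transport genes Slc4a8 (6 of 14) and Kcnk5 (4 of 11). Further members were Anp32a, Zfp395 and Gucy2g. Over all genes 20.7% had an ES bin and 3.35% a listed promoter bin, shares not matched for gene length. A promoter bin also counts toward the density by which the 20 were chosen. Of the 20, 11 had no ES bin and 6 had a bin at the promoter. Their 111 listed bins had a median of 13.4 CpG per kb, the same as all bins of these genes. In the 30 genes with most bins, the medians were 11.6 for listed bins and 10.2 for all bins. Genes with a promoter bin and at least 4 bins had 12.2 and 10.4. The 15 leading genes without an ES bin had 10.0 and 8.0.

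A listed promoter bin was present at 835 genes, 3.35% of all. Of all genes 20.7% had an ES bin and 4.44% an ES promoter bin, shares not matched for gene length. Of the 835, 49 had 4 or more bins in all, 15 of the 49 without an ES bin and 5 with an ES promoter bin. Beside Prkce, Ext1, Pknox2 and Zfp423, those with most bins were Cacna1c, an L-type calcium channel gene (12), Thsd4, a gene of microfibril assembly (10), Edar, Filip1 and Bnc2, a zinc finger gene of skin and connective tissue (8 each). Genes with 7 were Gli2, the transcription factor of Hedgehog signalling, Srgap3, a GTPase-activating protein gene of the Slit-Robo pathway, Sez6l and the predicted genes Gm13561 and Gm12824. Hspa12a, Dock8 and 0610012H03Rik had 2 promoter bins each. Genes with 4 bins included Kdr, the VEGF receptor gene, Vdr, the vitamin D receptor gene, its neighbour Hdac7, a histone deacetylase gene, Pmepa1, a TGF-beta target gene, Hoxb3, App and Pappa.

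Among genes without an ES bin, 1700112E06Rik had the most MEF bins (19), followed by Plce1 (11) and by Ccbe1 and Efna5 (10 each). Next were Meis2, a TALE homeobox gene, Mapkap1, a TOR complex gene, and Mylk, the myosin light chain kinase gene (9 each). Edar, Slc1a3, Fmn1, a formin gene of limb development, Sorcs1, a sorting receptor gene, and Prkg1, the cGMP-dependent kinase gene, had 8 each, in genes that ran from 74866 bp (Edar) to 1195585 bp (Prkg1). Of 6 such genes with 7 bins, Nkd1, Cpne8 and Gm12824 had the most bins per 100 kb. The ES list had its own bins elsewhere at many genes: of the 3636 MEF genes without wide models, 1529 also had an ES bin, 42.1%, where 20.7% of all genes had one. These shares are not matched for gene length. In the 10 length groups, genes with an ES bin rose from 2.53% in the shortest to 48.5% in the longest, as genes with a MEF bin did. A bin present on both lists was found in 291 genes.

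Genes were then grouped by function into 41 lists written by name. A list's density is its distinct listed bins per Mb of gene body and 5 kb upstream, and over all genes the density was 4.94 for MEFs and 5.39 for ES cells. In 25 of the 41 lists the MEF density was above that of all genes, and in 36 of the 41 the median gene had 0 bins, so the counts rest on part of each list. No set was tested, since bins are not replicates.

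Matrix genes were among the denser lists. Of 26 elastic fibre genes 13 had a bin, 13.4 bins per Mb (6.95 on the ES list). The members with most bins were the fibrillin gene Fbn1 and the latent TGF-beta binding protein gene Ltbp1 with 5 each, the lysyl oxidase gene Loxl1 with 3, and the fibulin gene Fbln1 with 2. Promoter bins lay at Fbln1, Loxl4 and Eln. Of 39 collagens 17 had a bin (7.92 per Mb, against 3.55). Col4a2, a basement membrane chain gene (6 bins), and Col14a1, a fibril-associated collagen gene (6), led with Col17a1 (5) and Col8a1 (3, 1 at the promoter). Matrix proteases and inhibitors had bins at 23 of 57 genes (10.7 per Mb, against 4.35), led by Adamtsl1 (13), Adamts20 (8), Adam12 (6) and Adamts16 (4, 1 at the promoter). Of 58 matrix glycoproteins and proteoglycans 26 had a bin (6.47 per Mb, against 5.05), with Slit3 (7), Smoc2 (6, 1 at the promoter), Slit1 (3) and the laminin gene Lama5 (2, 1 at the promoter) first.

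Genes of cell adhesion and movement followed. Of 51 integrin and focal adhesion genes 27 had a bin, 10.3 per Mb (9.44 on the ES list), and 9 had a promoter bin. The kinase gene Ptk2b had 7, and Nedd9, an adaptor of focal adhesions, the Src-family kinase gene Fyn and the tensin gene Tns1 had 5 each. Of 63 cytoskeleton and contractile genes 25 had a bin (8.11 per Mb, against 7.80), with Mylk (9), Ablim1, Palld and Dst (4 each) first. Cadherins outside the clustered protocadherins were sparse, at 15 of 49 genes and 1.40 per Mb (2.06 on the ES list), and Cdh13 with 3 bins had the most.

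Genes of signalling pathways were described by role. On the WNT list 32 of 92 genes had a bin (10.98 per Mb, against 8.39 on the ES list). Its members with most bins were the inhibitor gene Nkd1 (7), the receptor kinase gene Ror1 (6), the antagonist gene Sfrp1 (4) and Lgr4, an R-spondin receptor gene (4). Promoter bins lay at the ligand genes Rspo1, Wnt10b and Wnt2b and the corepressor gene Tle4. On the TGF-beta and BMP list 24 of 73 genes had a bin (9.47 per Mb, against 5.60). The coreceptor gene Tgfbr3 had 5, and the receptor genes Acvr1b and Acvr1 and the signal transducer gene Smad3 had 3 each. Promoter bins lay at Acvr1b, Bmp1 and Tgfb2, which had more than 1 bin, and at Amhr2. Of 23 Hedgehog genes 6 had a bin (10.1 per Mb), with Gli2 (7), the coreceptor genes Boc and Cdon (3 each) and the inhibitor gene Sufu (2). Of 98 receptor tyrosine kinases and ligands 35 had a bin (6.05 per Mb, against 3.94), with Efna5 (10), the neuregulin gene Nrg2 (8), the ephrin receptor gene Ephb2 (6) and Igf1r (5). Hippo genes (16 of 33, 7.27 per Mb) were led by the transcription factor gene Tead1 with 4, and Notch genes (9 of 40, 6.99 per Mb, against 10.0) by Notch2 with 4. Of 49 axon guidance genes 27 had a bin (6.15 per Mb), with Slit3 (7) and the semaphorin gene Sema6d (5) first.

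Calcium signalling genes were led by a few long genes. Of 25 voltage-gated calcium channel genes 11 had a MEF bin, at 10.3 per Mb, against 3.04 per Mb on the ES list. The auxiliary subunit gene Cacna2d3 had 20 bins, Cacna1c 12, the beta subunit gene Cacnb4 6 and the T-type channel gene Cacna1h 3. Promoter bins lay at 5 of them, among them Cacna1c, Cacna1h, Cacna1g and Cacna1d. Since Cacna2d3 and Cacna1c hold 20 and 12 of the list's 51 bins, the density rests largely on this pair. Of 72 genes of protein kinase C and calcium signalling 29 had a bin (7.27 per Mb, against 5.22), with Prkce (22), Plce1 (11), the inositol trisphosphate receptor gene Itpr1 (7) and the calcium sensor gene Stim2 (5) first.

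Transcription factors of mesenchyme and limb had bins at 32 of 74 genes, with 121 bins in all and 11.6 per Mb (7.11 on the ES list). Glis3 had 13, Nfib 12, Meis2 9 and Zfhx3 8, and promoter bins lay at Tshz1, Tbx4 and Prrx2. Of 43 adipogenic, osteogenic and chondrogenic genes 16 had a bin (8.32 per Mb), with Zfp423 (11), Sox6 and Sox5 (5 each) and Runx2 (4). Of 39 Hox genes 7 had a bin, through 6 distinct bins, 4 of them in Hoxb3. The list of other developmental factors, those of neural, endodermal and blood lineages, had bins at 9 of 90 genes (4.32 per Mb, against 10.4 on the ES list), led by Pax8 with 3. Myogenic genes had bins at 4 of 39 (2.75 per Mb) and germline genes at 6 of 41 (2.65 per Mb).

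Chromatin genes were counted in 3 lists. Among 38 genes listed under DNA methylation and oxidation enzymes, 7 had 1 bin each (3.75 per Mb, against 11.3 on the ES list). The list is wider than its name, as Cxxc5, Mbd5 and Zbtb38 do not encode such enzymes. The 7, named in full after their values were seen, were Dnmt3a and Dnmt3b, the de novo methyltransferase genes, Tet1, Uhrf2, Cxxc5, Mbd5 and Zbtb38, none with a promoter bin. Of 50 Polycomb and Trithorax genes 5 had a bin (1.81 per Mb, against 8.13), Jarid2 with 2 and Rnf2 and Aebp2 with 1 each, at the promoter. SNF2 remodelers and LSH partners had bins at 12 of 52 genes (6.08 per Mb, against 9.23), led by Arid1b (7), Smarca2 (5) and Baz2b (4). Cell cycle and senescence genes had bins at 6 of 65 (3.21 per Mb, against 8.33), with Cdk6 first at 4. Imprinted genes stood at 7.2 per Mb on both lists, with Ddc (6) and Grb10 (4) first among 16 of 55 genes. The Zfp genes had bins at 29 of 334 (4.29 per Mb, against 7.31). Histone genes had 2 of 67, clustered protocadherins 1 of 24 (Pcdhgc5, 3 bins) and olfactory and vomeronasal receptors 8 of 1399 (0.371 per Mb).

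The fragile-site and synaptic lists, which hold very long genes, had low densities. Long genes as a whole did not, as the longest of the 10 length groups stood at 5.13 bins per Mb. Of 26 fragile-site genes 14 had a bin, with Wwox (14), Macrod2 (10), Fto and Auts2 (6 each) first, but at 2.10 per Mb (1.88 on the ES list). Of 66 synaptic adhesion and scaffold genes 26 had a bin, at 2.07 per Mb, with Erc2 (13) and the teneurin gene Odz4 (9) first. Marker genes were counted by position only. Of 18 fibroblast markers 7 had 1 MEF bin each, S100a4, Thy1, Mmp2 and Col1a2 among them, and 1 had an ES bin. Epithelial markers had 1 of 7, endothelial 2 of 5 (Kdr and Pecam1), neural 1 of 6, and blood (6), pluripotent (6) and muscle markers (5) had none. Over all genes 14.6% had a MEF bin and 20.7% an ES bin. Lists of 5 to 7 genes are too short to tell such MEF counts from that share. Their intervals all include 14.6%, and that of the blood markers reaches 45.9%. The fibroblast share was 38.9% [17.3% to 64.25%]. The marker lists were not matched for gene length, and no difference between them was tested. On the ES list the epithelial count was 5 of 7. The ES counts of the endothelial, neural, blood, pluripotent and muscle markers are not given here.

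**Figure D2:**
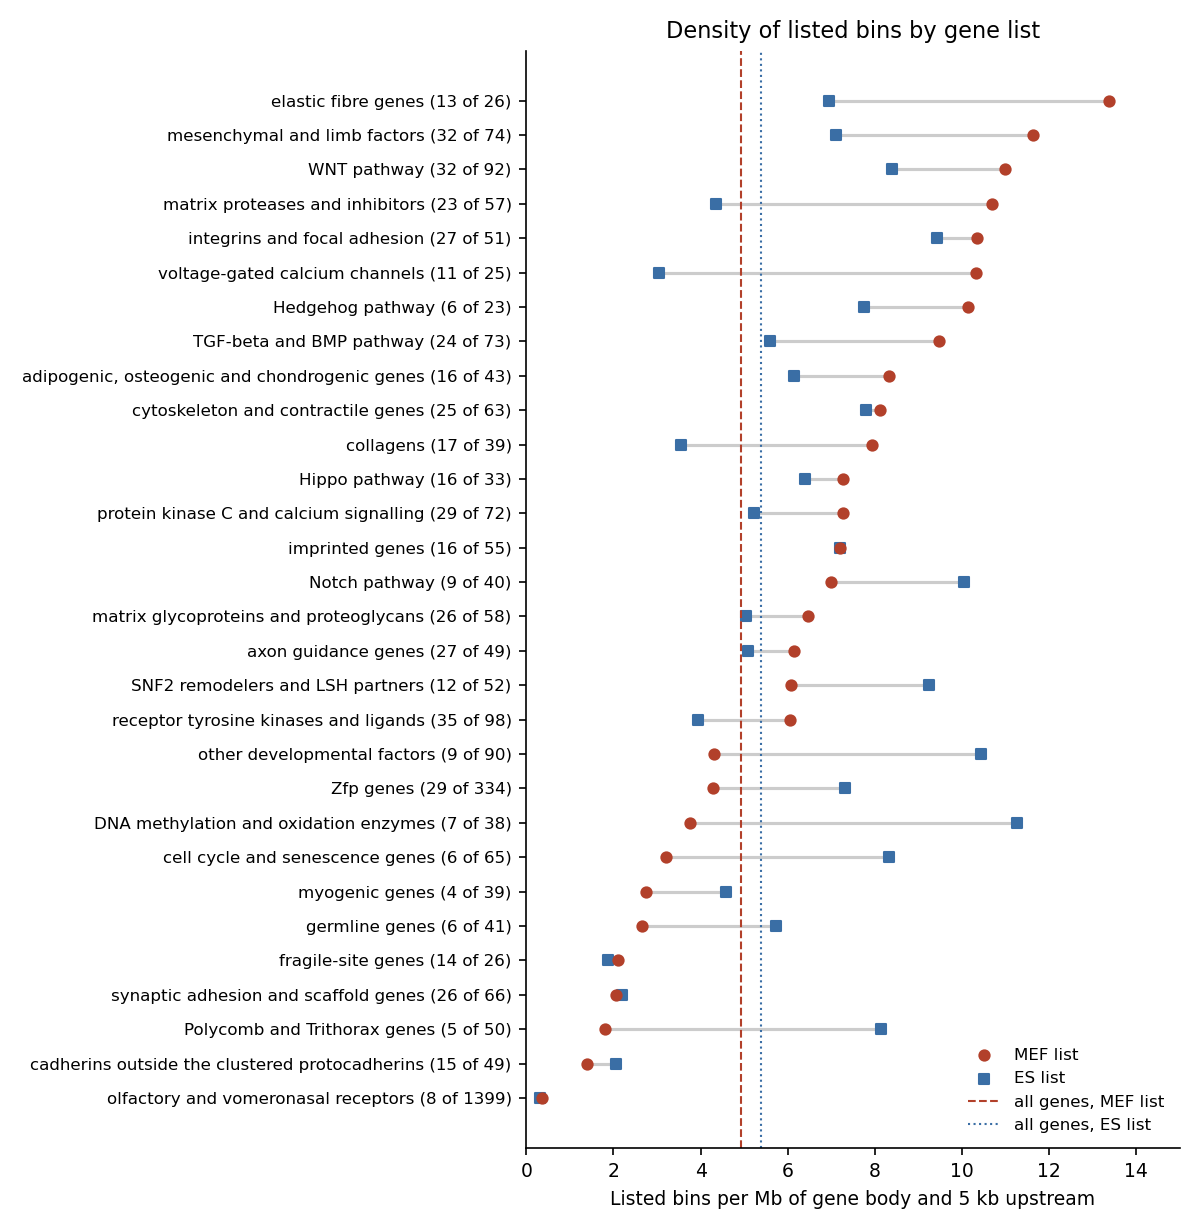
Density of listed bins, in bins per Mb of gene body and 5 kb upstream, for 30 gene lists that span at least 1 Mb; red circles are MEFs, blue squares ES cells, vertical lines the density over all genes, and the numbers of genes with a MEF bin stand beside each name. Elastic fibre genes lie at 13.4 for MEFs and olfactory receptors at 0.371. The widest gaps between circle and square include calcium channels (10.3 and 3.04) and the list of DNA methylation and oxidation enzymes (3.75 and 11.3), which also holds other genes.

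A MEF bin held 23 of 1468 microRNA models, 1.57%, through 20 distinct bins, and an ES bin held 56, 3.81%. Of the 23, 6 matched a mature sequence in the RefSeq table (GRCm38.p6). The 4 described here were chosen after their positions were seen. The let-7 family restrains proliferation and growth in differentiated cells, and let-7c-2 and let-7b share the listed bin near Ppara. The p53 target miR-34a lies in chr4:149440001-149445000, and miR-192, a microRNA abundant in epithelia, in chr19:6260001-6265000. The seed, bases 2 to 8 of the mature strand, is in capitals, and the let-7 pair shares the seed GAGGUAG.
let-7c-5p: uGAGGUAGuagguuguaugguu
let-7b-5p: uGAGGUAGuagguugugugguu
miR-34a-5p: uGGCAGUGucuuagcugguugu
miR-192-5p: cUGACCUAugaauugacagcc

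Introns held a larger part of the MEF list than of the genome. Bins were classed as promoter (within 1 kb of a gene start), otherwise exon, otherwise intron, otherwise intergenic. Intron bins were 31.6% of the list [30.6% to 32.6%] and 21.5% of all bins, exon bins 22.2% and 18.9%, promoter bins 8.67% and 6.44%, and intergenic bins 37.6% and 53.1%. Within classes, 2.73% of intron bins were listed [2.63% to 2.83%], 2.51% of promoter bins, 2.18% of exon bins and 1.32% of intergenic bins. By this rule the order on the ES list was different, with exon bins (3.39%) and promoter bins (3.24%) above intron bins (1.93%). The first intron stood above later ones: 3.44% of bins in first introns [3.25% to 3.63%] and 2.37% in later introns [2.25% to 2.49%] were listed, with median CpG densities of 7.8 and 7.2 per kb. On the ES list these shares were 2.46% and 1.66%. The classes depend on the rule: by the position of the bin midpoint 52.3% of MEF bins were intron bins (37.6% of all bins), 41.8% intergenic (57.4%), 3.33% exon (3.02%) and 2.61% promoter bins (1.92%). The ES shares by midpoint were 53.9% intron, 34.9% intergenic, 7.46% exon and 3.80% promoter bins. The larger intron share of the MEF list than of the ES list was therefore not seen by midpoint.

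The listed share rose with CpG density over most of its range. In 10 equal groups of bins by CpG density, 0.155% of the lowest group were listed [0.121% to 0.194%], 4.35% of group 9 [4.17% to 4.53%] and 3.75% of the highest [3.58% to 3.92%]. The corresponding ES shares were 0.0251%, 4.84% and 5.79%. By class, promoter bins stood at 4.06% in group 9 and 3.02% in group 10, and intergenic bins at 3.96% and 3.01%. Intron bins stood at 6.41% and 6.35%, the highest of the classes, and exon bins at 3.39% and 3.98%. A CpG-island-like window (500 bases with at least 55% GC and an observed to expected CpG ratio of at least 0.65) was present in 4.75% of MEF bins, 7.53% of ES bins and 3.75% of all bins. Promoter bins with and without such a window were listed in MEFs at 2.53% [2.25% to 2.82%] and 2.495% [2.28% to 2.73%]. Of intron bins with one, 11 of 815 were listed, 1.35% [0.676% to 2.40%], against 2.74% of those without.

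**Figure D3:**
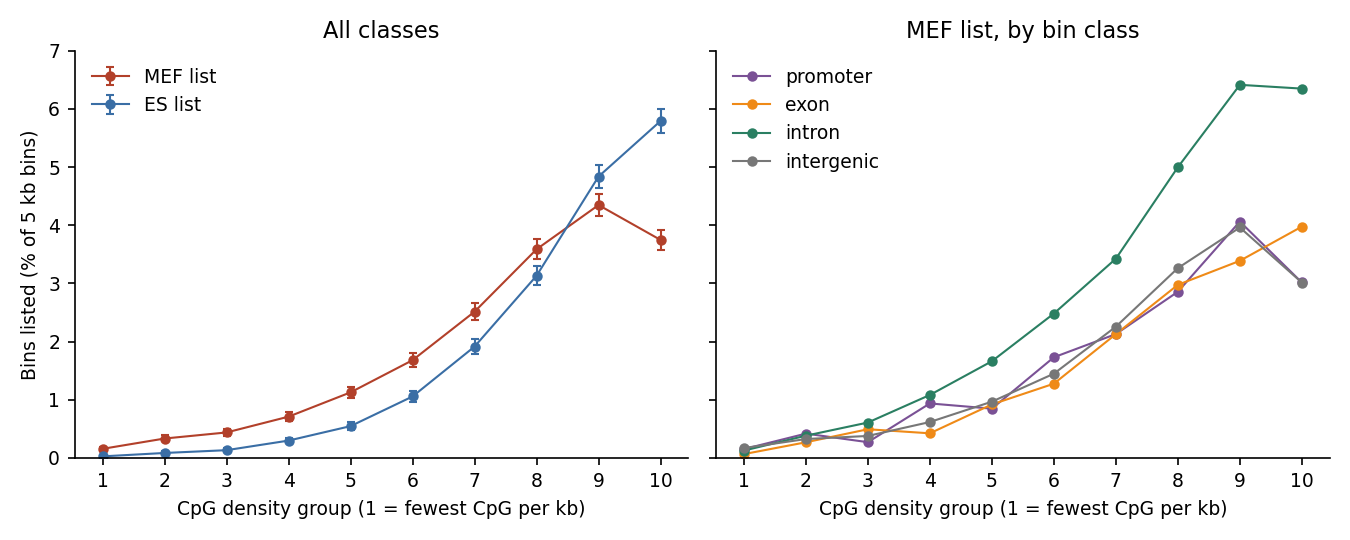
Listed share of 5 kb bins, in percent, by CpG density group (1 holds the fewest CpG per kb); left, MEF and ES lists over all classes with exact 95% intervals, right, the MEF list by bin class. In MEFs the share falls from 4.35% in group 9 to 3.75% in group 10 while the ES share reaches 5.79%, and intron bins stand at 6.41% and 6.35% in the 2 top groups.

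MEF bins lay at a steady share over a wide range of distances from gene starts. Of bins with their midpoint within 2.5 kb of a start 2.51% were listed [2.31% to 2.72%], and between 2.5 and 100 kb the shares of 5 distance groups ran from 2.26% to 2.42%. The share was 1.81% at 100 to 200 kb and 0.575% beyond 200 kb. On the ES list it was 3.34% within 2.5 kb and 1.77% at 50 to 100 kb. The median distance was 35.5 kb in MEFs, 22.3 kb in ES cells and 57.3 kb over all bins. Along 4889 genes of at least 50 kb, each cut into 10 equal parts, 3.05% of bins in the first part were listed in MEFs [2.79% to 3.34%] and 2.03% in the last part [1.81% to 2.26%]. On the ES list these shares were 2.39% and 2.90%.

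**Figure D4:**
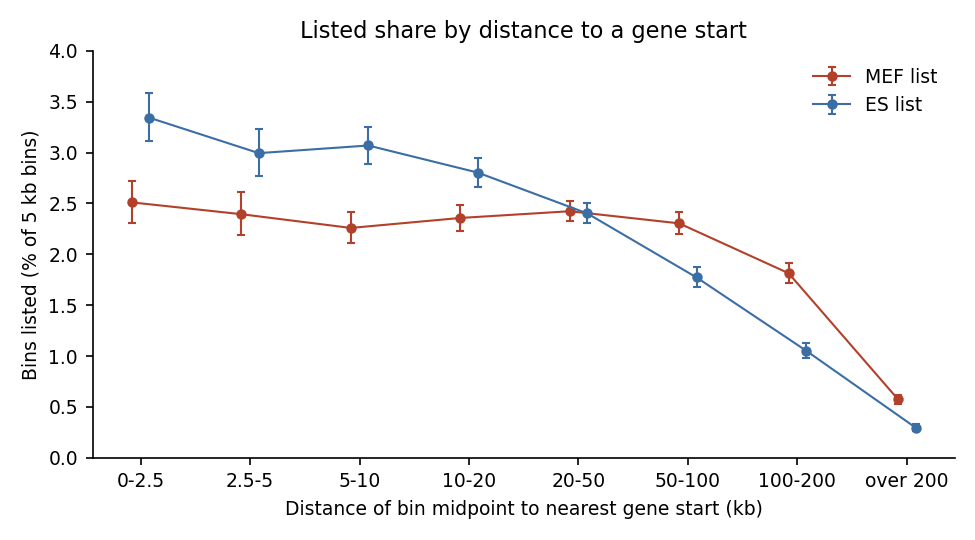
Listed share of 5 kb bins, in percent, by distance of the bin midpoint from the nearest gene start in kb, for the MEF list (red) and the ES list (blue), with exact 95% intervals. The MEF points lie between 2.26% and 2.51% out to 100 kb, while the ES points fall from 3.34% near starts to 1.77% at 50 to 100 kb.

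Chromosomes differed in listed share by up to 4.57-fold in MEFs. Chromosome 19 had the highest, 4.26% [3.90% to 4.64%], followed by chromosomes 15 (3.23%), 17 (2.66%) and 2 (2.32%). The lowest were chromosomes 12 (0.932%), 1 (1.05%), 3 (1.06%) and 7 (1.07%). Weighting each chromosome to the genome-wide mix of CpG groups left a 3.70-fold range. On the ES list the shares ran from 1.24% on chromosome 3 to 2.75% on chromosome 11, and the MEF share was the higher on 10 chromosomes. Touching bins were 27.4% of the listed bins on chromosome 15 and 8.22% on chromosome 12, against 20.7% over all MEF bins and 10.2% on the ES list.

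**Figure D5:**
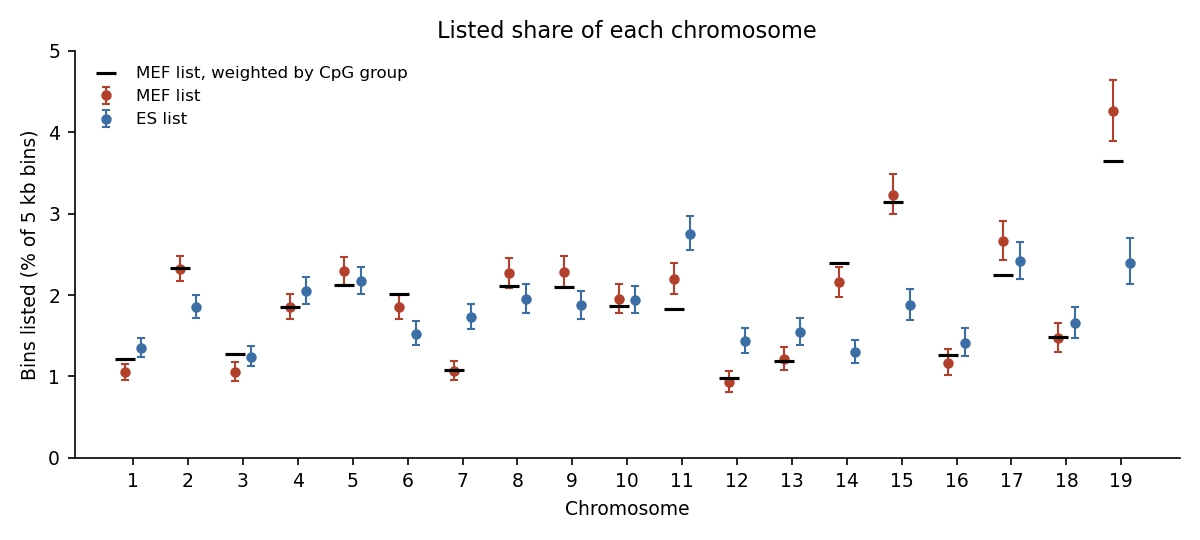
Listed share of 5 kb bins, in percent, on chromosomes 1 to 19 for the MEF list (red) and the ES list (blue), with exact 95% intervals; black bars are MEF shares weighted to the genome-wide mix of CpG groups. Chromosome 19 stands at 4.26% in MEFs and chromosome 12 at 0.932%, and the weighted share of chromosome 19 is 3.64%.

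Within chromosomes the bins were unevenly spread. When each chromosome was cut into 10 equal parts, the 190 parts all held a MEF bin and 5 were listed at above 5%. The distal part of chromosome 15 (93455001 to 103494974) was highest at 8.22%, against 5.23% on the ES list, and had a median of 12.2 CpG per kb. It holds keratin genes, Krt7 among them, the Hoxc cluster, Vdr and Adamts20. The distal part of chromosome 19 followed at 7.92%, against 3.18% on the ES list. The fifth part of the same chromosome (26460001 to 32275000), with a median of only 8.0 CpG per kb, stood at 6.45% against 1.63% on the ES list. Summed over chromosomes, the first part, next to the centromere, stood at 1.28% and the last at 2.59%.

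Of 2401 windows of 1 Mb, 693 had no MEF bin, 28.9%, and 249 had 10 or more, which together held 38.4% of all MEF bins. On the ES list 733 windows had no bin and 234 had 10 or more. Windows with 20 or more numbered 21, against 4 on the ES list. The richest, chr14:29000001-30000000, held 28 bins in Cacna2d3, Erc2 and around them, with 3 ES bins and a median of 7.0 CpG per kb. Next were chr15:97000001-98000000 with 27 bins, at Hdac7 and Vdr among others, and chr8:123000001-124000000 with 27. These held 16 and 12 ES bins. At chr15:90000001-91000000, 22 bins included 7 in Cpne8, where the ES list had 0.

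MEF and ES lists shared 406 identical bins. These were 4.55% of the MEF list, where 1.78% of all bins were ES bins, and 4.76% of the ES list, where 1.86% of all bins were MEF bins. The shares of all bins are not matched for CpG density, with which both lists rose. From the lowest to the highest CpG group, the listed share was 0.155% and 3.75% in MEFs and 0.0251% and 5.79% in ES cells. An ES bin at the same or a next-door position was found for 1019 MEF bins, 11.4%, and the share over all bins was not counted. The shared bins had a median of 13.4 CpG per kb, above the 11 of all MEF bins and the 12.6 of ES bins. No difference between the cell types was tested, because each group has 1 library, and a difference in the cells and a difference in how the lists were made cannot be told apart.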

How the data were processed

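Captured 5hmC was sequenced from MEF-WT, MEF-KO, ES-WT and ES-KO, 1 library each. BWA and SAMtools 1.3.1 on mm9 are named per the submitters' processing notes, without their role. The counting method, caller and threshold, and any use of an input, were not given in the sources used here, so how they shape the list is unknown. The deposited values are other than measurements: a chromosome, start, end and running number for each 5 kb bin the authors called differential. No 5hmC level or depth was used.

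Positions are 1-based. The numbers of 8972 of 8972 MEF bins on chromosomes 1 to 19 and X equalled the numbering of the NCBIM37 reference, which was used with GENCODE M1. Shares use bins with at most 50% undetermined bases. Genes were models of the types protein coding, lincRNA or processed transcript, 1 per name, 7 wide models being kept out of lists and named genes. A repeated word is a sampled 32-base word (1 in 64) that occurs more than once. The summing of bins was checked on a simulated list, where the counts of 24930 of 24930 genes equalled a direct count over the same bins. This checks the arithmetic only, and cannot show that each gene was given the right bins.

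The members and the gene lists were chosen with earlier results of these data known. Of 3557 list symbols 54 were not found on chromosomes 1 to 19. Genes were named by rule: the 30 with most bins (ties by bins per 100 kb), the 20 densest with at least 4 bins and 20 kb, up to 4 leading and up to 4 promoter-bin members of each list, genes with a promoter bin and at least 4 bins, genes at stretches of 6 or more bins, and the 15 leading genes without an ES bin. Exceptions are stated beside them. The results of 1 list and of 1 gene are not reported here. No test of the groups was possible. Alternatives were other class rules, joining distances, gene spans and backgrounds, and touching bins only. Python 3.11.15, numpy 2.4.6, pandas 2.3.3, scipy 1.17.1, numba 0.67.0 and matplotlib 3.10.9 were used.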

Additional observations from a re-analysis of the deposited data

Results flagged for a closer look

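Listed MEF bins also lay outside the chromosomes described. On the X chromosome 52 of 32419 bins were listed, 0.160% [0.120% to 0.210%], against 18 on the ES list. Unplaced sequence held 27 listed bins, 20 of them on sequence assigned to no chromosome, against 10 on the ES list, and 3 of the 4 mitochondrial bins were listed, against 2 on the ES list. There is no control sample for these counts.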

How the results depend on the processing

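No paired analysis was possible because each group has 1 library and the results come from no test. The share of bins listed was 1.80% over all bins and 2.34% over bins with under 20% repeated sequence. By bin midpoint the promoter, exon, intron and intergenic shares were 2.61%, 3.33%, 52.3% and 41.8%. With protein-coding models only, promoter, exon and intergenic shares were 7.10%, 20.4% and 41.5%. With promoters taken to 2.5 kb, promoter, exon and intron shares were 11.8%, 20.9% and 30.6%. Among touching bins the 4 shares were 8.0%, 20.8%, 35.8% and 35.4%. Counting next-door bins raised the bins also on the ES list to 1019. With low-repeat bins only, CpG groups 9 and 10 stood at 4.98% and 4.50%. The number of stretches (7911 and 5860 under other joining distances), genes with a bin (2858 to 3636) and the chromosome range (3.70-fold) stayed within 1.5 times or the interval of the reported value. Of single chromosomes, 12 stayed within their interval under CpG weighting and 7 did not. Counting gene bodies only, 2 lists crossed the density of all genes, and counting touching bins only, 12 did. Read depth, and so what the list could detect, is unknown, and bins of repeated sequence are hard to assess.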
